A study of Rattus norvegicus with 8 samples.

Results

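The expression of 4 rat genes of inflammation was followed across cardiac fibroblasts, myofibroblasts and microcurrent-treated myofibroblasts. They are the enzyme genes Ptgs2 (ENSRNOG00000002525) and Nos2 (ENSRNOG00000011023) and the adhesion molecule genes Icam1 (ENSRNOG00000020679) and Vcam1 (ENSRNOG00000014333). The genes were chosen by their role, with earlier results of these data known. By Ensembl ID, 3 of them were found among 21867 genes in a table of estimated counts. All 4 were found among 13341 genes in a matrix of whole-number counts. For Nos2 only the matrix was used, and estimated counts of this gene were not analysed here.

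The study comprised 8 RNA sequencing libraries in 4 groups of 2, which the series describes as biological replicates. Cardiac fibroblasts (CF) were isolated from neonatal rat hearts of the Wistar Kyoto strain and grown in medium with 10% FBS. Myofibroblasts (MF), the contractile and matrix-producing cells that fibroblasts become, were derived from CFs by repeated passaging in low-serum medium, and the treated groups were such MFs exposed to direct current at 1 µA or 2 µA per cm2 for 72 h in medium with 10% FBS. The number of animals behind a library is not given in the sources used here, and neither is the medium in which the untreated MFs were held during the 72 h. The effect of the current and that of serum therefore cannot be told apart against MF, and passage, serum and time in culture cannot be told apart between MF and CF. In RNA of whole cultures, fewer cells of a type and less RNA per cell cannot be told apart either. Markers of fibroblasts, leukocytes and endothelial cells were not analysed here, and the part of other cell types in the values below was not tested.

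Ptgs2 encodes cyclooxygenase-2, the inducible enzyme that turns arachidonic acid into the precursor of prostaglandins, and Nos2 encodes the inducible synthase that makes nitric oxide from arginine. Icam1 and Vcam1 encode cell surface proteins of the immunoglobulin superfamily to which leukocytes attach through their integrins. In fibroblasts, endothelium and macrophages all of them are known to be switched on by cytokines and bacterial products, largely through the transcription factor NF-κB, with help from C/EBP, interferon-regulated and other factors. In the heart they are best known from infarction, myocarditis and rejection, where they accompany the entry of leukocytes.

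Promoter sequences of the genes are shown as a description, and no sequence was matched for Nos2. RefSeq sequences on assembly GRCr8 were matched for Ptgs2, Icam1 and Vcam1, each from 250 bases before to the first 50 bases after the start site used by the sequence table. They lie at chr13:64713813-64714112 on the plus strand, chr8:27829595-27829894 on the plus strand and chr2:206742734-206743033 on the minus strand, and are written 5′ to 3′ with every motif match in capitals.
Ptgs2: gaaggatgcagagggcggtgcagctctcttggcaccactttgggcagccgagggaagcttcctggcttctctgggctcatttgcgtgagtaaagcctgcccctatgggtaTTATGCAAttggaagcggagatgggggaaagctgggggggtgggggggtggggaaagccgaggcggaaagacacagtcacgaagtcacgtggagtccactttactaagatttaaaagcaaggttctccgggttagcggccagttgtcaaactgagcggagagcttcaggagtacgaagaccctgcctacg
Icam1: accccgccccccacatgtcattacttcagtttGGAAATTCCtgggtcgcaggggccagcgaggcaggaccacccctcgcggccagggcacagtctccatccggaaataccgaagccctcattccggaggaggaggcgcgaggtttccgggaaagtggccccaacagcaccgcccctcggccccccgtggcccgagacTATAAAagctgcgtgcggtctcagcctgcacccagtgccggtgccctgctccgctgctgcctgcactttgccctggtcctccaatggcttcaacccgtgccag
Vcam1: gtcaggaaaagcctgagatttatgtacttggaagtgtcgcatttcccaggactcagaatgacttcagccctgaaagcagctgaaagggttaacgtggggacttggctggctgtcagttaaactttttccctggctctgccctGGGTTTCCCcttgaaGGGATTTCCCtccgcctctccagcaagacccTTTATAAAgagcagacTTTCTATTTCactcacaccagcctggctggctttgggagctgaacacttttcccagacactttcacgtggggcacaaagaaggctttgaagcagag

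The promoter of Vcam1 held a pair of NF-κB matches close together, that of Icam1 held one, and the window of Ptgs2 held none. NF-κB was searched as its 10-letter consensus and as a 9-letter form without the first G, so that each longer match also holds a shorter one, and both strands were read. The longer form was matched in Vcam1 at positions -93 to -84 from the start site, and it occurs in 7.51% of the 33469 promoters in the table. The shorter form was matched at -108 to -100 in Vcam1 and at -218 to -210 in Icam1, and 25.7% of all promoters hold it. TATAAA, the TATA box, was matched at -53 to -48 in Icam1 and on both strands between -62 and -55 in Vcam1, against 14.2% of all promoters. The window of Ptgs2 held the C/EBP core TTGCNNAA at -140 to -133 on the reverse strand, as do 10.6% of all promoters, and that of Vcam1 held the interferon-sensitive motif GAAANNGAAA at -46 to -37, as do 3.92%. Neither the AP-1 motif TGANTCA, held by 7.33% of all promoters, nor the CRE core TGACG, held by 21.2%, was matched in any of the 3 windows. These matches describe letters, and no binding was measured. Sequence outside the windows was not searched, and a link between the motifs and the expression of the genes was not tested.

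**Figure D1:**
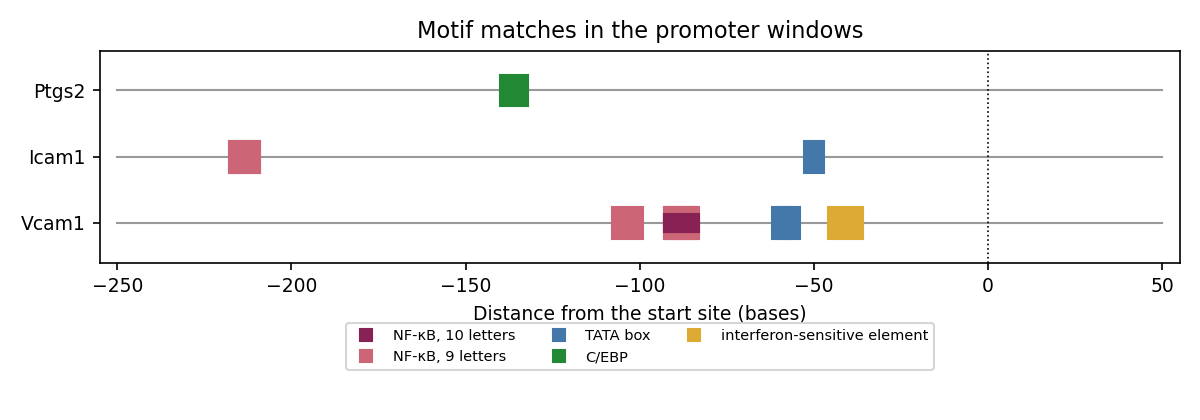
Motif matches in the promoters of Ptgs2, Icam1 and Vcam1, drawn to scale along the distance in bases from the start site (dotted line). The NF-κB matches of Vcam1 lie between -108 and -84, that of Icam1 between -218 and -210, and Ptgs2 shows a C/EBP match only.

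In MF, 3 of the 4 genes were called higher than in CF, namely Nos2, Icam1 and Vcam1, and Ptgs2 was not called. The test was edgeR's quasi-likelihood test with all 8 libraries in the fit, and a call required a log2 fold change of 1 or more in either direction and a p below 0.05 after Benjamini-Hochberg adjustment over all genes tested. Of all genes tested, 6.36% were called higher in MF than CF in the estimated counts and 6.2% in the matrix. At 1 µA and at 2 µA, 2 of the 4 genes, Nos2 and Icam1, were called lower than in MF. The share of all genes called lower was 2.27% at 1 µA and 2.66% at 2 µA in the estimated counts, and 2.2% and 2.49% in the matrix. Both genes were also called lower in the mean of the treated groups, beside 3.88% of all genes in the estimated counts and 3.57% in the matrix. Against CF, Nos2 and Vcam1 were called higher at both current densities, beside 3.82% and 2.89% of all genes in the estimated counts and 3.62% and 2.65% in the matrix. Between the current densities edgeR called 0 of the 4 genes, beside 0.00722% of all genes in the estimated counts and 0% in the matrix. Of the 4, 1 had an unadjusted p below 0.05 and DESeq2 called 1. Of all genes, DESeq2 called 7 of 17184 in the estimated counts and 3 of 13341 in the matrix. A library held between 26473085 and 37903701 estimated counts in all, and between 18960425 and 26687203 counts in the matrix. Levels are given as CPM, which are counts relative to a library size scaled by TMM so that differences in depth are removed, and they are compared within a gene only because gene length was not taken into account.

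Nos2, the nitric oxide synthase, was at 0 and 1 counts in CF, highest in MF and lower again after microcurrent. Whole-number counts of 0 and 1 were found for CF, 305 and 303 for MF, 82 and 67 for the 1 µA libraries and 25 and 20 for the 2 µA libraries. The groups did not overlap. The MF replicates differed by less than the median gene did between these libraries, while the 1 µA replicates, 1.29-fold apart, differed more than 78.2% of genes did. On the CPM scale, the MF libraries stood at 15.7 ± 0.483 (SD, n = 2), the 1 µA libraries at 3.48 ± 0.619 (SD, n = 2) and the 2 µA libraries at 1.01 ± 0.155 (SD, n = 2). Of the CF libraries, replicate 2 stood at 0.0456 CPM, and the count of 0 in replicate 1 allows a level of up to 0.113 CPM, taking 3 counts as the limit. The order was thus CF, 2 µA, 1 µA, MF.

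The difference of Nos2 between MF and CF rests on 1 count in CF. Summed over libraries, 608 counts in MF stood against 1 in CF, a ratio of 757 after scaling, with an exact 95% interval from 135 to 29950. At 1 µA the ratio to CF was 168, with an interval from 29.6 to 6665, and at 2 µA it was 48.6, with an interval from 8.29 to 1963. These intervals cover counting error only. In edgeR's quasi-likelihood test, the adjusted p was 0.000245 for MF, 0.00195 for 1 µA and 0.0064 for 2 µA against CF. The fitted log2 fold changes against CF depend on the prior count, and that of MF was 8.25 without CF replicate 1 and 11.42 without CF replicate 2. With only 2 µA and CF in the fit, the adjusted p was 0.094 and Nos2 was no longer called between them. That fit called 27 of all 13241 genes tested, against 600 with all groups in the fit.

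Against MF, Nos2 fell by 2.17 ± 0.28 (SE) on the log2 scale at 1 µA (adjusted p = 0.0116, edgeR) and fell by 3.95 ± 0.31 at 2 µA (adjusted p = 0.00293, edgeR). These are 4.5-fold and 15.5-fold lower levels, and 99.1% and 99.9% of the 13339 genes tested had a higher log2 fold change than Nos2 at 1 µA and 2 µA. The call at 1 µA was lost without MF replicate 1 or 2 and without 1 µA replicate 1 or 2. The log2 fold change there was -2.20, -2.13, -2.36 and -1.99. The call at 2 µA was lost without MF replicate 1 or 2, at log2 fold changes of -3.99 and -3.92. In each of these fits 1 library stood for an arm and was assumed to vary like the other groups. Far fewer of all genes were called in these fits than with all libraries, so the loss is not particular to Nos2. Over all fits without 1 library the log2 fold changes stayed between -2.36 and -1.99 at 1 µA and between -4.12 and -3.81 at 2 µA.

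Between the current densities, Nos2 was 3.44-fold lower at 2 µA than at 1 µA, with a log2 fold change of -1.78 ± 0.31 (SE) and a 95% interval from -2.51 to -1.06. The lower 1 µA library, with 67 counts, lay above the higher 2 µA library, with 25. The unadjusted p of 0.00056 was the smallest of the 13339 genes tested, yet it did not pass edgeR's adjustment over all of them (adjusted p = 1). DESeq2 called it (adjusted p = 0.0137), and over the alternatives run the adjusted p ranged from 0.0137 to 1.

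**Figure D2:**
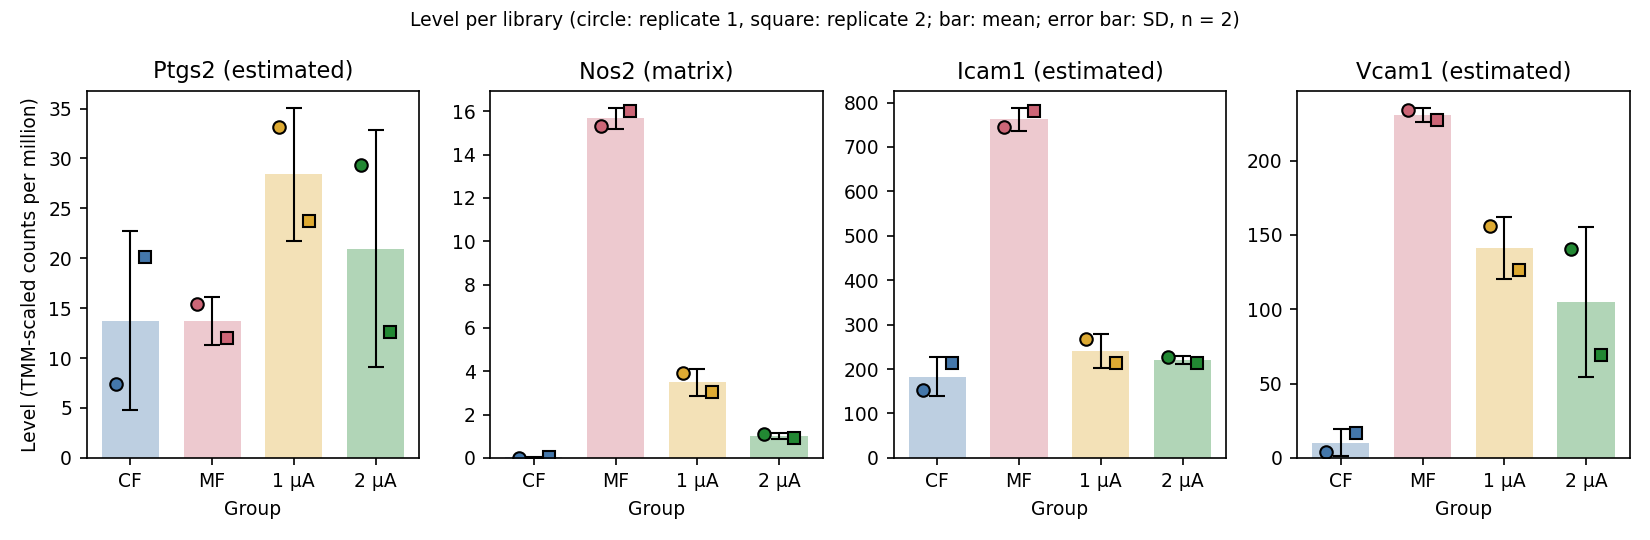
Level of each gene in TMM-scaled CPM by group on linear axes from 0, where circles and squares are replicates 1 and 2, bars are means and error bars are SD (n = 2), from the matrix for Nos2 and the estimated counts for the other genes. Nos2, Icam1 and Vcam1 peak in MF, whereas the highest libraries of Ptgs2 are at 1 µA and 2 µA.

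Icam1, to which integrins of neutrophils, monocytes and lymphocytes bind, was higher in MF than in CF and lower again after microcurrent. Its estimated counts, rounded, were 5745 and 6529 in CF, 19908 and 20741 in MF, 7951 and 6487 with 1 µA and 7050 and 6627 with 2 µA. The CF libraries stood at 152 and 214 CPM and the MF libraries at 744 and 780 CPM, followed by 267 and 214 CPM with 1 µA and 226 and 215 CPM with 2 µA. Both MF libraries lay far above the other 6, while the treated libraries began just above the higher CF library in the estimated counts. In the matrix they overlapped with CF. There CF replicate 2 stood at 266 CPM, 1 µA replicate 2 at 263 and 2 µA replicate 2 at 265. The means were 183 ± 43.4 CPM in CF, 762 ± 25.5 in MF, 241 ± 37.5 at 1 µA and 220.5 ± 8.41 at 2 µA (SD, n = 2 each).

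Icam1 was 4.17-fold higher in MF than CF, with a log2 fold change of 2.06 ± 0.19 (SE, adjusted p = 0.00201, edgeR), above 96.4% of the 13849 genes tested. At 1 µA it fell by 1.66 ± 0.19 on the log2 scale (adjusted p = 0.0117, edgeR) and at 2 µA it fell by 1.79 ± 0.19 (adjusted p = 0.00975, edgeR). On that scale these falls were 80.8% and 86.9% of the difference between MF and CF, a description in which the MF libraries are shared. For Vcam1, which was not called against MF, the same shares were 15.7% and 25.2%. Against CF, Icam1 had a log2 fold change of 0.40 at 1 µA, with a 95% interval from -0.05 to 0.84. At 2 µA it was 0.27, with an interval from -0.17 to 0.71. Neither was called (adjusted p = 0.229 and 0.428, edgeR), and the intervals leave room for equal levels as well as for a difference of this size. Between the current densities the log2 fold change was -0.13, with an interval from -0.57 to 0.31. The differences of Icam1 from CF, and with them its shares, depend on the CF library. Without CF replicate 1 they were 0.19 at 1 µA and 0.065 at 2 µA, and without CF replicate 2 they were 0.66 (adjusted p = 0.0449, edgeR, under the fold threshold) and 0.54 (adjusted p = 0.0818, edgeR). With all libraries, the neighbours CF, 2 µA and 1 µA in the order of levels were not told apart, and MF stood above them.

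The call of Icam1 between MF and CF held without each library in turn. At 1 µA against MF it was lost without MF replicate 1 or 2 and without 1 µA replicate 1 or 2, where the adjusted p was 0.116, 0.107, 0.0594 and 0.112. At 2 µA it was lost without MF replicate 1 or 2 (adjusted p = 0.104 and 0.0836, edgeR). For the mean of both treated groups, Icam1 fell by 1.73 on the log2 scale (adjusted p = 0.00314, edgeR). This call was lost without MF replicate 1, at a log2 fold change of -1.76. The fits that lost a call of Icam1 called far fewer of all genes than the main fit, so the loss is not particular to Icam1.

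Vcam1, which binds an integrin of monocytes and lymphocytes, was higher in MF and in both treated groups than in CF, and its replicates differed more than those of Icam1 in CF and at 2 µA. Its estimated counts, rounded, were 143 and 509 in CF, 6261 and 6048 in MF, 4640 and 3833 at 1 µA, and 4374 and 2140 at 2 µA. In CPM, CF gave 3.79 and 16.7 and MF gave 234 and 228, with 156 and 127 at 1 µA, and 140 and 69.3 at 2 µA. All treated libraries lay between the CF and the MF libraries without overlap, and replicate 2 at 2 µA was the lowest of them. The CF libraries differed 4.39-fold from each other, more than 98.9% of all genes tested did between these libraries, and the 2 µA libraries differed 2.03-fold, more than 93.3% of genes did.

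The log2 fold change of Vcam1 in MF against CF was 4.51 ± 0.70 (SE, adjusted p = 0.00966, edgeR), a 22.7-fold difference and above 99.2% of genes tested. Against CF it was 3.80 ± 0.68 at 1 µA (adjusted p = 0.0206, edgeR) and 3.37 ± 0.67 at 2 µA (adjusted p = 0.0334, edgeR). The size depends on the CF library. Without CF replicate 1 the log2 fold changes in MF, at 1 µA and at 2 µA were 3.81, 3.10 and 2.67, and without CF replicate 2 they were 5.93, 5.22 and 4.79. The direction was the same in every alternative run.

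Against MF, Vcam1 was not called at either current density. Its log2 fold change was -0.71 ± 0.60 (SE) at 1 µA, with a 95% interval from -2.14 to 0.73 (adjusted p = 0.498, edgeR), and -1.14 ± 0.61 at 2 µA, with an interval from -2.58 to 0.31 (adjusted p = 0.277, edgeR). At 2 µA the value depends on the library, with -1.74 without 2 µA replicate 1 and -0.72 without 2 µA replicate 2, and it was not called in either. The intervals hold a fall as large as that of Icam1 as well as no change. With only 1 µA and MF in the fit the adjusted p was 0.00844, and the log2 fold change of -0.70 was under the fold threshold. Between the current densities the log2 fold change was -0.43, with an interval from -1.86 to 1.00, and it was -1.03 without 2 µA replicate 1 and -0.0079 without 2 µA replicate 2. In the order CF, 2 µA, 1 µA, MF, only CF was told apart from its neighbour with all groups in the fit.

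Vcam1 was called between MF and CF in 16 of 18 alternatives, between 1 µA and CF in 12 of 18 and between 2 µA and CF in 10 of 18, with an adjusted p from DESeq2 of 2.82e-08, 6.99e-06 and 0.000115. In edgeR, the call between MF and CF was lost without MF replicate 1 or 2, at log2 fold changes of 4.48 and 4.53. Between 1 µA and CF the call was lost without either MF replicate and without either 1 µA replicate. It was also lost with only these groups in the fit (adjusted p = 0.0655, edgeR). Between 2 µA and CF the call was lost without either MF replicate, without either 1 µA replicate and without 2 µA replicate 1. With only these groups in the fit it was lost too (adjusted p = 0.166, edgeR). Fewer of all genes were called in these fits as well than in the main fit.

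**Figure D3:**
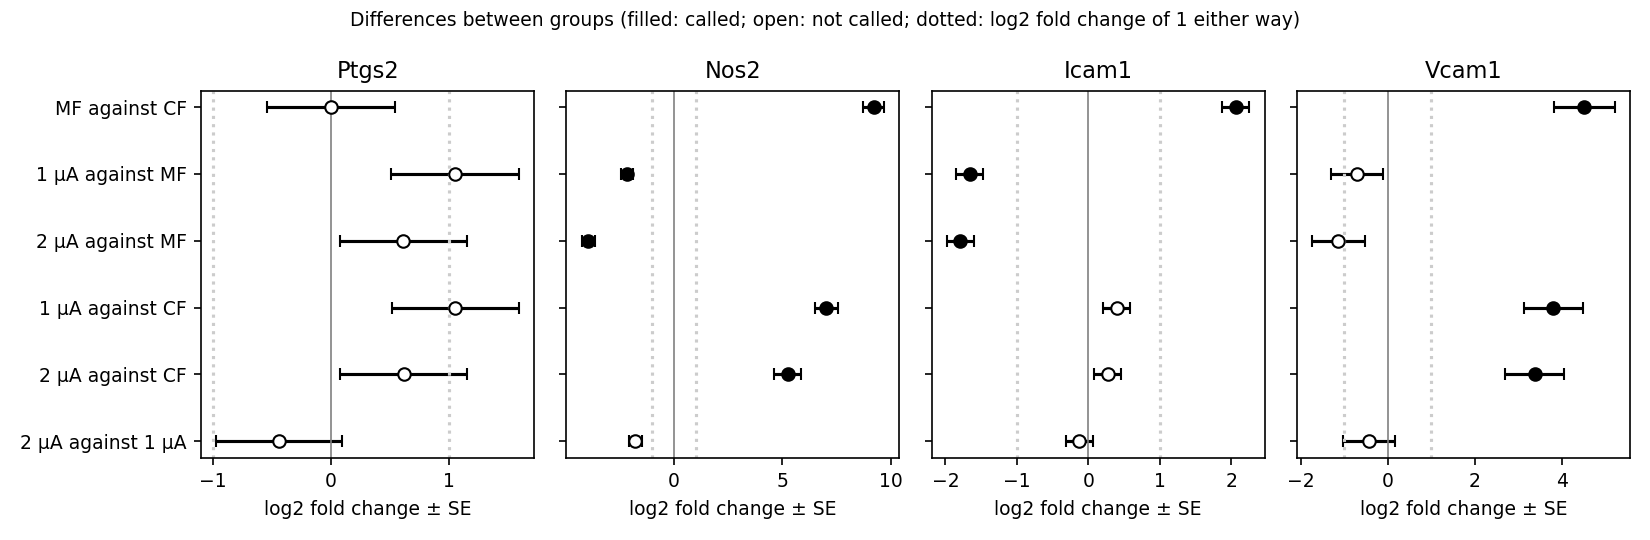
Log2 fold change of each gene in 6 comparisons of groups, with error bars of 1 SE from edgeR's fit and with filled points for called genes. Nos2 and Icam1 lie below 0 at both current densities against MF, at -2.17 and -3.95 for Nos2, and Ptgs2 has no filled point.

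Ptgs2, the cyclooxygenase, was not called in any of the 7 comparisons. Its estimated counts were 280 and 614 in CF, 412 and 320 in MF, 985 and 718 at 1 µA, and 914 and 388 at 2 µA. These correspond to 7.42 and 20.1 CPM for CF, 15.4 and 12.0 CPM for MF, 33.1 and 23.7 CPM with 1 µA and 29.4 and 12.6 CPM with 2 µA. The MF libraries lay inside the range of the CF libraries, and 3 of the 4 treated libraries lay above all CF and MF libraries. The fourth, replicate 2 at 2 µA, lay between the MF libraries in the estimated counts. In the matrix it lay below both, at 8.51 CPM against 11.4 and 9.40 CPM in MF.

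The log2 fold change of Ptgs2 in MF against CF was 0.00 ± 0.54 (SE), with a 95% interval from -1.29 to 1.29 (adjusted p = 0.999, edgeR). At 1 µA against MF it was 1.05 ± 0.54, with an interval from -0.24 to 2.34 (adjusted p = 0.271, edgeR), and at 2 µA it was 0.61 ± 0.54, with an interval from -0.67 to 1.90 (adjusted p = 0.503, edgeR). With only 1 µA and MF in the fit, the log2 fold change of 1.06 was called (adjusted p = 0.018, edgeR). The CF and 2 µA libraries then do not enter the estimate of the spread. The value at 2 µA was -0.13 without 2 µA replicate 1 and 1.10 without replicate 2, so its direction was set by 1 library. Against CF the log2 fold changes were 1.05 at 1 µA and 0.61 at 2 µA (adjusted p = 0.265 and 0.539, edgeR), and between the current densities it was -0.44. The value at 1 µA against CF was 0.51 without CF replicate 1 and 1.93 without CF replicate 2 (adjusted p = 0.0792, edgeR), and that at 2 µA against CF was 0.080 and 1.50 in the same fits.

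Replicates of Ptgs2 were farther apart than those of most genes. The CF libraries differed 2.71-fold and the 2 µA libraries 2.34-fold, more than 96.0% and 95.5% of genes tested did between the same libraries. The libraries that were low for Ptgs2, CF replicate 1 and 2 µA replicate 2, were also the low ones of their groups for Vcam1 and Icam1. For Nos2 their counts, 0 against 1 in CF and 20 against 25 at 2 µA, had overlapping 95% counting intervals. For Icam1 the 2 µA libraries differed 1.06-fold, and for Nos2 the 2 µA libraries differed 1.25-fold. No neighbours in the order of levels of Ptgs2 were told apart, and CF and MF changed places in it between scales, at 13.8 and 13.7 CPM on average here but with CF lower in the authors' normalized and vst values.

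Among all genes tested, the one most like Ptgs2 was ENSRNOG00000015310, with a Pearson correlation of 0.989 over the vst values of the 8 libraries. The one most like Icam1 was ENSRNOG00000019478, with a correlation of 0.996. These are descriptions over libraries that fall into 4 groups, picked from 13848 genes each. For MF against CF, the log2 fold change was 0.06 for ENSRNOG00000015310 and 1.08 for ENSRNOG00000019478.

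Both count tables gave the same calls for Ptgs2, Icam1 and Vcam1 in each of the 7 comparisons, although they counted different numbers of reads. The matrix held 89.1% to 90.9% of the estimated counts of Icam1, 72.7% to 82.3% of those of Vcam1 and 49.0% to 55.6% of those of Ptgs2. Over the 11878 genes in both tables the median was 72.8%, with quartiles of 60.0% and 81.9%. The lowest share of Vcam1 was in CF replicate 1, where it rests on 104 counts in the matrix, and the other 7 libraries lay from 79.5% upwards. The factors by which the authors divided the estimated counts differed by at most 0.636% among these 3 genes within a library, so that normalization moved them alike.

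**Figure D4:**
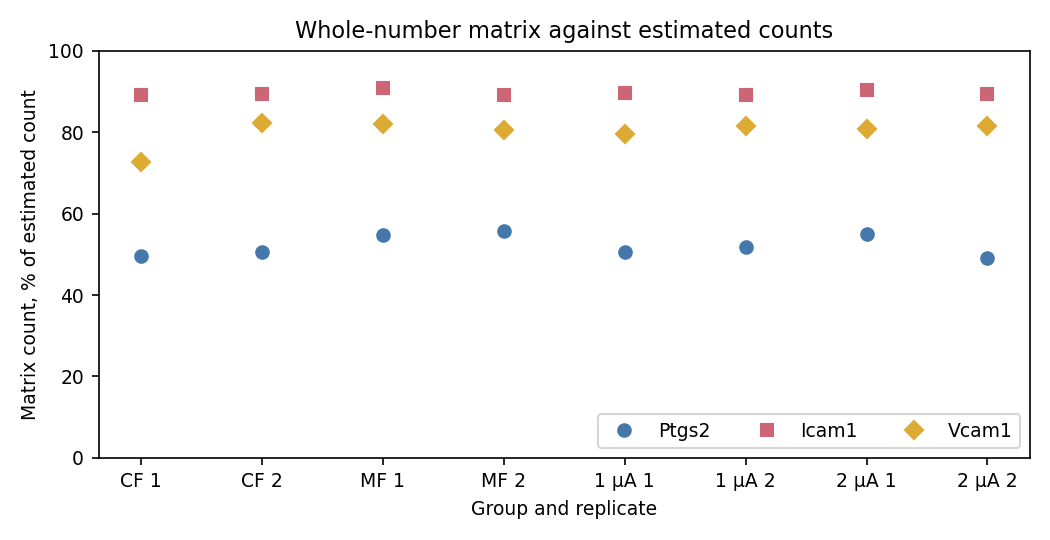
Count in the whole-number matrix as a percentage of the estimated count for Ptgs2, Icam1 and Vcam1 in each of the 8 libraries. The shares stay near 90% for Icam1 in every library, and Ptgs2 lies between 49.0% and 55.6%.

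**Figure D5:**
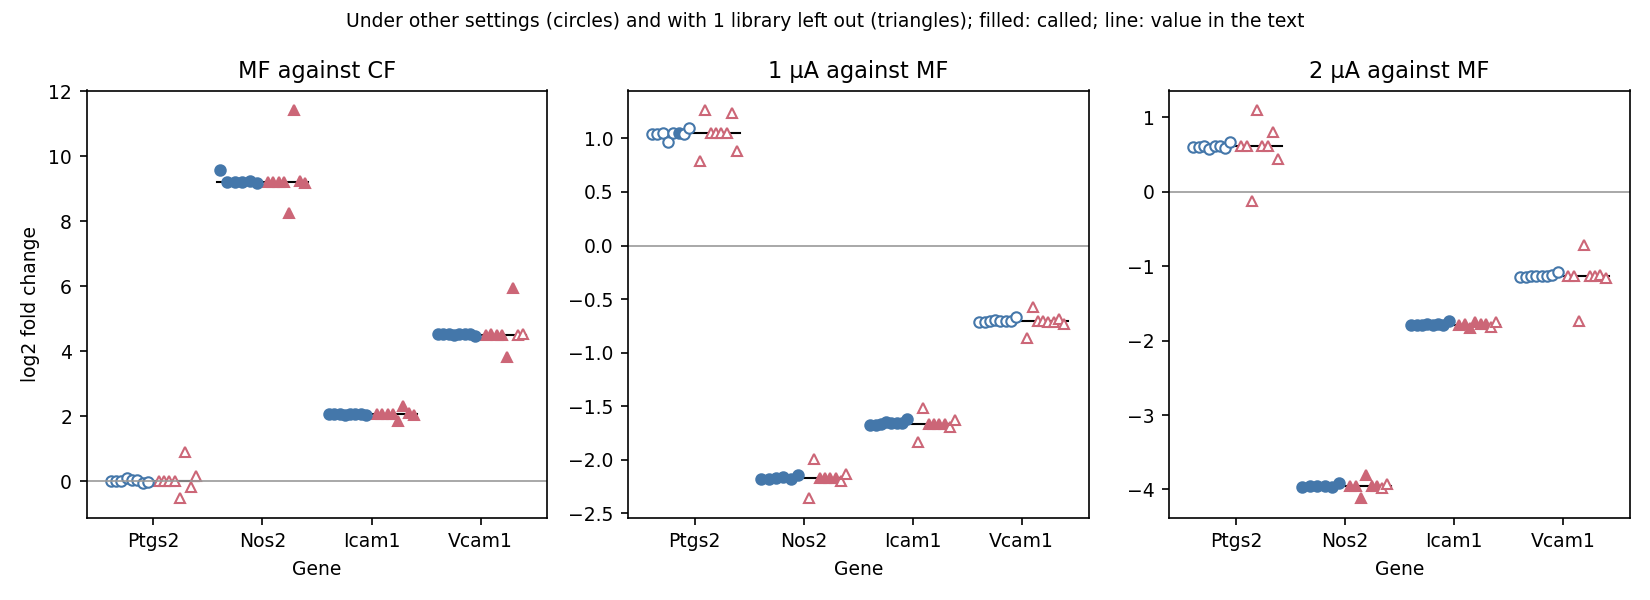
Log2 fold change of each gene in MF against CF and in both treated groups against MF under other settings (circles) and with 1 library left out (triangles), filled where the gene was called, with a line at the value given in the text. Nos2 and Icam1 stay on 1 side of 0 in all of them, and Ptgs2 crosses 0 in MF against CF and at 2 µA.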

How the data were processed

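Sequenced RNA of 8 libraries was grouped by the sample titles into 4 groups of 2. The estimated counts deposited by the authors come from salmon and tximeta on rn6. DESeq2-normalized values (a signal) and variance stabilised (vst) values in log2 units were derived from them by the authors. A second table deposited by the authors holds whole-number counts, with a sum of 80 or more for each gene. How it was made is not given in the sources used here, although the labels describe fastp and STAR.

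Estimated counts were rounded. Both count tables were filtered with filterByExpr, scaled by TMM and compared in R 4.3.3 by edgeR 4.0.16, which builds on limma 3.58.1, with 1 coefficient per group and 4 residual degrees of freedom. There were 13849 genes tested in the estimated counts and 13339 in the matrix. The SE is the log2 fold change over the square root of F. The fit was also run on simulated counts with changes planted in MF only, as a check of the code, and no result here rests on that. Alternatives were DESeq2 1.42.0, other scalings, filters, thresholds and groups in the fit, the matrix, a replicate block and leaving out each library. Figures used Python 3.11.15 and matplotlib 3.10.9.

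The genes and lists were chosen with earlier results of these data known. The 4 genes were named whatever their values, and likeness was ranked over all genes tested, with 1 ID each for 2 genes. Of 5 related gene lists and 6 cell type marker lists none was run, because they need symbols that the tables used here do not pair with Ensembl IDs. The letters of the motifs were set after the sequence table was seen.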

Additional observations from a re-analysis of the deposited data

Results flagged for a closer look

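Nos2 differed between the current densities, with a log2 fold change of -1.78 at 2 µA against 1 µA, and is listed because the difference itself had an unadjusted p of 0.00056 in edgeR. Both 2 µA libraries, with 25 and 20 counts, lay below both 1 µA libraries, with 82 and 67. The adjusted p was 1 with edgeR and 0.0137 with DESeq2. Leaving out 1 library gave log2 fold changes from -1.96 to -1.59.

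Dixon's test over the 4 treated libraries, with both current densities pooled, marked none of the 4 genes. A difference between the densities widens the range, so this does not show that no library was outlying. The largest gap relative to the range, 0.770, was that of Icam1 in 1 µA replicate 1. With 2 libraries, single groups could not be tested for outlying values.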

How the results depend on the processing

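The alternatives gave 490 log2 fold changes with calls, and those that only move a threshold reuse the main fit and cannot change sign. Of these 490, 448 kept their direction and call, 32 lost a call, 2 gained one and 8 changed sign. The cause was not tested unless given. A minimum of 10 counts in every library takes out Nos2 by its CF counts. This left 2 called genes in place of 3 for MF against CF. It left 1 in place of 2 at both current densities against MF, in their mean against MF and at both against CF. At an adjusted p below 0.01, 0 genes were called by edgeR at 1 µA against MF (2 had an unadjusted p below 0.05 and DESeq2 called 2 at the usual threshold), and 1 at each current density against CF. When a fit held the compared groups alone, 1 was called at 1 µA and 0 at 2 µA against CF (2 with an unadjusted p below 0.05, and 2 called by DESeq2 with all groups). Of all genes, these fits called 485 of 13549 at 1 µA and 2 of 13526 at 2 µA in the estimated counts. In the matrix they called 477 of 13255 and 27 of 13241. With all groups in edgeR's fit, 901 and 695 were called in the estimated counts and 793 and 600 in the matrix. DESeq2 called 1 gene, Nos2, between the current densities, where edgeR called 0 and 1 had an unadjusted p below 0.05. Of all genes in the matrix, DESeq2 called 3 of 13341 there.

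The main fit did not pair libraries by replicate number. Deviations between replicates were correlated above 0.1 in 1 of 6 pairs of groups. This pair was 1 µA and 2 µA, with a correlation of 0.242 in the estimated counts and 0.299 in the matrix. Whether libraries of the same number share a batch was not tested. With a replicate block, 1 gene in place of 2 was called at 2 µA against CF, where Vcam1 had a log2 fold change of 3.41 (adjusted p = 0.061, edgeR), and no other call changed.

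When 1 library was left out, the number of called genes was 2 to 3 for MF against CF and 0 to 2 for either current density against MF (where 2 had an unadjusted p below 0.05 in each fit with 0 calls), 1 to 2 for the mean of the treated groups and for either current density against CF, and 0 between the current densities. Each fit without 1 library that lost a call also called fewer of all genes in that comparison than the main fit. In the fits with 0 calls against MF, far fewer of all genes were called, so the loss is not particular to these genes. Ptgs2 changed sign in MF against CF, to -0.035 with upper quartile scaling and -0.049 with the block. It ranged from -0.53 without CF replicate 1 to 0.89 without CF replicate 2, with -0.19 without MF replicate 1. With 1 library left out it ranged from -0.13 to 1.10 at 2 µA against MF, from -0.13 to 1.50 at 2 µA against CF and from -1.18 to 0.048 between the current densities, where Icam1 ranged from -0.27 to 0.041. The order of groups was the same for 2 of 3 genes in the authors' normalized values and for 2 of 3 in the vst values. The tests of related gene lists were not run. For Nos2, the 45 counts at 2 µA and 1 count in CF limit precision.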
